A study of Mus musculus with 2 samples.

Results

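Interleukin and chemokine genes are the mouse genes whose array name is Il, Ccl, Cxcl, Ccr or Cxcr followed by a number, receptors included. They were taken from the gene annotation of the arrays, also where they formed one side of a hyphen-joined name of 2 divergent genes. The naming rule gave 113 genes, of which 112 had at least 3 probes and were counted, out of 16908 genes measured in all. Ccl27 had 1 probe and was not counted. The 112 genes comprised 35 interleukins, 36 interleukin receptors, 30 chemokines and 11 chemokine receptors.

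Binding of the Polycomb protein Ring1B in mouse embryonic stem (ES) cells was measured on promoter tiling arrays, to which DNA recovered with an antibody is hybridised (ChIP-chip). DNA precipitated with a monoclonal antibody to Ring1B carried Cy5, and input DNA of the same kind of cells carried Cy3. There was one group, ES cells, and the 2 arrays were 2 slides of different promoters, so that each gene was measured once, without a replicate, a dye swap or a mock precipitation. The labels name no strain, genotype, treatment or cell line, and the source names of both channels begin with Muscle while the titles name ES cells, which could not be checked against marker genes because no RNA was measured. Every value is a log2 ratio of precipitated over input DNA, set relative to the median probe of its slide. For each gene the probes were averaged, and the SD describes their scatter along the promoter, not an error between samples. With 1 array per promoter there was no test and no p-value, and genes were described by size, and a mean of 1 or more, which is 2-fold over the slide's median, served as the mark. Slide 1 held 63 of the genes and slide 2 held 49. The scanner software called the input signal well above background for 74.1% (slide 1) and 76.3% (slide 2) of probes. Precision is limited by there being 1 array for each promoter.

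Ring1B is the catalytic subunit of Polycomb repressive complex 1, which adds ubiquitin to histone H2A and helps to keep developmental genes silent. In ES cells this complex is known to sit mainly at promoters within CpG islands, stretches of DNA rich in the dinucleotide CpG. Interleukins are secreted signals between immune cells that act through cytokine receptors and the JAK and STAT proteins, and chemokines are small secreted proteins that guide cell migration through G protein-coupled receptors. Most of these genes are used in blood and immune cells.

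Both kinds of promoter were present among these genes, as the following sequences show. RefSeq promoters (GRCm38.p6, 250 bases before to 50 after the start, CpG in capitals) were held for 86 of the 112 genes, with the promoter richest in CpG taken where a gene had several. Cxcl12 and Il13ra1 are shown as CpG-rich promoters and Ccl8 and Il4 as CpG-poor ones.
Cxcl12 promoter, chr6:117168285-117168584, plus strand, 20 CpG: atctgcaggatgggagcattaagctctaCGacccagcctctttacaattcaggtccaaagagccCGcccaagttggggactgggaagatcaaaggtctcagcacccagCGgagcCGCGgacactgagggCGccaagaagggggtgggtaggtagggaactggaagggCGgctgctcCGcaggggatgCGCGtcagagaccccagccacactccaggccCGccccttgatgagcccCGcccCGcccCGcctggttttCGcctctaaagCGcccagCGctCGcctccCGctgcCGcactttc
Il13ra1 promoter, chrX:36111858-36112157, plus strand, 28 CpG: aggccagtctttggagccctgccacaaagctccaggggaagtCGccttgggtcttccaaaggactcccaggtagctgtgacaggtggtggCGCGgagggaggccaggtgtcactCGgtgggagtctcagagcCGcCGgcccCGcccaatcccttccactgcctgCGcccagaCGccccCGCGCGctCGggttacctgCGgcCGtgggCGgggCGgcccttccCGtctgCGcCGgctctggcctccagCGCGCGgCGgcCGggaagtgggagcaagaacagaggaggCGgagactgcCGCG
Ccl8 promoter, chr11:82114935-82115234, plus strand, 2 CpG: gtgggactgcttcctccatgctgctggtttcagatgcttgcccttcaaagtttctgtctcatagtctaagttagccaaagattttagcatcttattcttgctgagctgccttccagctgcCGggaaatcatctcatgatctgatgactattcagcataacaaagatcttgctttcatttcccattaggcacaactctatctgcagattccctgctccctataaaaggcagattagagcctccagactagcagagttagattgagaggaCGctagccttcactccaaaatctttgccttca
Il4 promoter, chr11:53618616-53618915, minus strand, 2 CpG: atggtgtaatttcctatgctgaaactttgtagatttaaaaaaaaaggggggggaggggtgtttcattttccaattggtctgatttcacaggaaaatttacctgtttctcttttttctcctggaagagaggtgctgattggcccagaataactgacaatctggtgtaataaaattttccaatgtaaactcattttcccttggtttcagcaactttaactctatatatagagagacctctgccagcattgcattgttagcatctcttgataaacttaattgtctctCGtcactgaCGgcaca

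The array probes with the highest ratio in 6 of the genes, the lowest probe of Ccl6 and Il4, and the probe of Il13ra1 richest in CpG are printed with CpG in capitals, because they show high ratios in probes with many CpG and in probes with none. Their coordinates are those of the array files, whose genome build and probe strand are not given in the sources used here. Inside means within the transcribed gene, with exons and introns not told apart in the array annotation.
Cxcl12 highest probe, chr6:117195152-117195196, annotated inside the gene, log2 ratio 3.39: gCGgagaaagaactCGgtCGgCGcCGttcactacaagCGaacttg
Cxcl14 highest probe, chr13:55385960-55386009, annotated promoter, log2 ratio 3.44: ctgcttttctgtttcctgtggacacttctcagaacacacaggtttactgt
Il13ra1 highest probe, chrX:30872547-30872606, annotated inside the gene, log2 ratio 3.29: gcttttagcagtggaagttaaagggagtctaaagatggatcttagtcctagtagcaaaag
Il13ra1 probe richest in CpG, chrX:30871832-30871876, annotated promoter, log2 ratio 0.07: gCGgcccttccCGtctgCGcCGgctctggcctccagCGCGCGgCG
Cxcr4 highest probe, chr1:128471896-128471955, annotated inside the gene, log2 ratio 3.1: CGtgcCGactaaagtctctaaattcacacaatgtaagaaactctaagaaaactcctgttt
Il20ra highest probe, chr10:19438341-19438400, annotated inside the gene, log2 ratio 4.21: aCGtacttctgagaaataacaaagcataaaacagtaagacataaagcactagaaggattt
Ccl8 highest probe, chr11:82198554-82198613, annotated downstream, log2 ratio 2.93: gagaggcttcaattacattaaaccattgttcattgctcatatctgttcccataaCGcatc
Ccl6 lowest probe, chr11:83661633-83661692, annotated inside the gene, log2 ratio -3.80: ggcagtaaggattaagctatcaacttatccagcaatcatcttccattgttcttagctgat
Il4 lowest probe, chr11:53573681-53573738, annotated inside the gene, log2 ratio -4.28: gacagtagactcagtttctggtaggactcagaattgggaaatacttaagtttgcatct

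Across the whole family, no gene had a mean of at least 1 and 1 gene, Ccl6, had a mean of -1 or less. Of all 16908 genes, 1.99% reached 1 and 1.85% reached -1, so that counts of 0 and 1 among 112 were close to these background shares. The median of the 112 genes was -0.16, against -0.10 for all genes, and 37 of the 112 lay above 0, or 33.0% against 39.2% of all genes. By slide, the family's median was -0.17 against -0.13 for all genes on slide 1, and -0.07 against -0.07 on slide 2. The highest mean was 0.72 and the lowest -1.01, and 91 of 112 genes lay within 0.5 of the median probe. At the looser mark of 0.58 (1.5-fold), 3 genes were above, Ccl8, Il20ra and Cxcl12, or 2.68% of the family against 5.8% of all genes. A mean of -0.58 or less was found for 14 genes, or 12.5% against 11.5% of all genes. The Hox genes, long known Polycomb targets, mark the upper end of the scale, since 27 of 33 reached 1 and their median was 1.41. No mean of the 112 genes exceeded in size the SD over the gene's own probes, which ran from 0.45 for Il13ra2 to 2.09 for Ccl9 with a median of 1.36. A probe of 1 or more occurred in 109 of the genes and a probe of -1 or less in 108. Such probes were common on the arrays. Of the probes without a CpG, 17.0% in the family and 16.9% in other genes reached 1. In turn, 22.7% and 21.6% of these probes reached -1. No share over all genes was taken for these counts, for the means against their SD or for the 91 genes within 0.5.

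**Figure D1:**
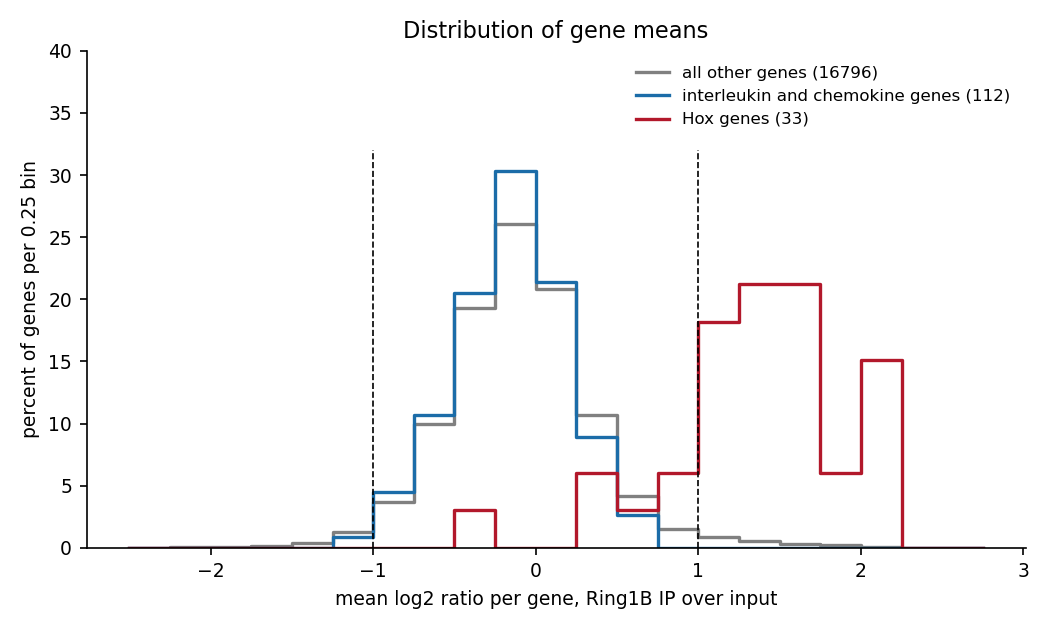
Percent of genes per 0.25 bin of the mean log2 ratio (Ring1B precipitate over input) for the 112 interleukin and chemokine genes, the 16796 other genes and the 33 Hox genes. The dashed lines mark 1 and -1. The interleukin and chemokine genes end at 0.72 and follow the bulk of the other genes, whereas 27 Hox genes lie at or above 1.

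The plot of gene means shows one peak for the family, with 30.4% of its genes between -0.25 and 0, the bin that also held the most other genes (26.0%). No gene of the family lay in the tail at or above 1, which held 2.01% of the other genes. With so small a share, the absence of family genes there was close to background.

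Interleukins, the secreted ligands, had a median of -0.25 over 35 genes, and 8 of the 35 were above 0. It was the lowest of the roles here but not under 6 of 11 alternatives. Chemokine receptors were lowest with normexp background correction (-0.14) and with distances from the RefSeq start (-0.52). Chemokines were lowest with loess (-0.32), by probe medians (-0.0095), in the series table (-0.11) and once dim input probes were dropped (-0.42). Under all 11 alternatives the interleukin median was below that of all genes, by as little as -0.009 against -0.006 with the median of probes. The highest was Il1f10, a member of the IL-1 family, with 0.36 ± 1.09 (SD over 30 probes). Il17d, a member of the IL-17 family, followed with 0.33 ± 0.96 over 28 probes, and Il12b, which encodes the shared p40 subunit of IL-12 and IL-23, with 0.32 ± 1.22 over 36 probes. Il24 and Il21, the latter a T cell cytokine of the common gamma chain family, had means of 0.15 and 0.13. Both were below 0 within 1000 bp of the array's start, at -0.21 and -0.33, and Il21 also without probes dim in input (-0.15). All of these interleukins had means below the mark of 1. Il12b had the most high probes of them, with 11 of 36 reaching 1 and 4 reaching -1.

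The lowest interleukins were Il4 with -0.96 ± 1.51 (SD over 30 probes), Il17c with -0.92 ± 1.13 over 31 probes and Il13 with -0.79 ± 1.73 over 33 probes. Il4 and Il13 encode related cytokines of type 2 helper T cells, and Il17c encodes an epithelial member of the IL-17 family. Of the 30 probes of Il4, 13 reached -1 and 3 reached 1. Il17c had 12 of its 31 probes at or below -1 and no probe at or above 1. Il4i1, which the naming rule takes although it encodes an amino acid oxidase and not a cytokine, had a mean of -0.75 over 38 probes. Among the other interleukins singled out by name, Il2, Il7 and Il10 had means close to the median probe over all their probes. Il2, the T cell growth factor, had -0.04 ± 1.16, Il7, a growth factor of developing lymphocytes, -0.11 ± 1.2, and Il10, an anti-inflammatory cytokine, -0.12 ± 1.31. Il6 and Il1b, cytokines of acute inflammation, were lower with -0.35 ± 1.36 and -0.45 ± 1.41. Several of these values moved with the settings. Within 1000 bp of the array's start Il2 was at -0.34, Il7 at -0.62 and Il10 at 0.46. Without probes dim in input Il7 was at -0.78 and Il6 at -1.22, while by the median of probes Il6 was at 0.003. By family, the median was -0.35 for the 8 measured IL-1 family genes, -0.43 for 5 IL-17 family genes, -0.29 for 4 IL-12 family genes, -0.09 for 4 IL-10 family genes and -0.07 for 6 genes of the common gamma chain family. None of these families held a gene at or above 1.

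Interleukin receptors had a median of -0.07 over 36 genes, 15 of them above 0. Il20ra, a receptor chain for IL-19, IL-20 and IL-24, was highest with 0.64 ± 1.53 (SD over 29 probes), and 11 of its 29 probes were at or above 1. Il28ra (now Ifnlr1), the receptor chain for the lambda interferons, had 0.40 ± 1.39 over 22 probes. Il1rapl2, a relative of the IL-1 receptor accessory protein, had 0.30 over 8 probes but -0.06 with the median of probes, and no start was placed for it. Il13ra1, which binds IL-13, had 0.28 ± 1.41 over 33 probes, and Il10rb, a chain shared by IL-10 family receptors, 0.27 over 15 probes. Il6st, which encodes gp130, the signal-transducing chain for the IL-6 family and for leukemia inhibitory factor, stood at 0.00 ± 1.18 over 36 probes. The lowest receptors were Il3ra, the alpha chain of the IL-3 receptor, with -0.82 ± 1.06 over 17 probes, Il22ra2, a soluble receptor that binds IL-22, with -0.72 ± 1.56 over 28 probes, and Il12rb1, a chain of the IL-12 and IL-23 receptors, with -0.63 ± 1.18 over 31 probes. The order of this role against all genes was not stable. Its median was above that of all genes here and below it with at least 20 probes per gene (-0.14 against -0.10), with at least 1 probe (-0.07 against -0.06) and with probes within 1000 bp of the array's start (0.01 against 0.03).

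Chemokines had a median of -0.18 over 30 genes, and they held both ends of the whole family. Within 1000 bp of the array's start their median was above that of all genes, 0.04 against 0.03, and by the RefSeq start it was 0.38 against 0.04, over 17 genes. Ccl8, which attracts monocytes, was highest with 0.72 ± 0.91 (SD over 25 probes). No probe of Ccl8 was at or below -1 and 9 were at or above 1, while 36% of its probes were at the floor in both channels, where the scanner software gives a substitute value for spots too dim to measure. Its median input signal was 64.3, against 302 for the typical gene, and the part of dim probes in its value was not tested. Without the floor probes the mean of Ccl8 was 1.10, and with normexp background correction it was 0.36. Cxcl12, the ligand of Cxcr4 and a guide for migrating stem and germ cells, followed with 0.59 ± 1.32 over 38 probes, of which 14 were at or above 1 and 5.26% at the floor. Cxcl2 and Ccl3, attractants of neutrophils and of monocytes, had means of 0.24 and 0.22, and Cxcl11, a ligand of Cxcr3, 0.18. Ccl3 shares 15 of its 33 probes with its neighbour Ccl4, so their values are not independent.

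Ccl6, a CC chemokine of rodents, was the lowest gene of the family with -1.01 ± 1.54 over 31 probes, of which 16 reached -1 and 4 reached 1. Within 1000 bp of the start its mean was -0.39. Ccl25, which guides T cell precursors to the thymus, had -0.77 ± 1.64 over 26 probes but 0.03 within 1000 bp of the start, and Ccl26l (now Ccl26) -0.74 ± 1.43 over 14 probes. Ccl2, an attractant of monocytes, had -0.51 ± 1.68 over 35 probes. The CC chemokines had a median of -0.34 with 2 of 17 genes above 0, and the CXC chemokines a median of 0.02 with 7 of 13 above 0. Floor probes filled a median of 13.6% of the CC genes' probes and 20.7% of those of the CXC genes, and their part in this contrast was not tested.

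Chemokine receptors had a median of -0.04 over 11 genes, 5 of them above 0. With normexp background correction the median was -0.14 while that of all genes was 0.01, so that its place relative to all genes turned. It was also below all genes in the series table (-0.09 against 0.02), with loess (-0.25 against -0.14) and within 1000 bp of the array's start (-0.06 against 0.03) or of the RefSeq start (-0.52 against 0.04, over 7 genes). Cxcr4, the receptor for Cxcl12, was highest with 0.46 ± 1.38 (SD over 35 probes), and 12 of its 35 probes were at or above 1. Ccr4, a receptor of T helper cells, had 0.27 ± 1.29 over 26 probes, and Ccr7, which guides lymphocytes to lymph nodes, 0.13 ± 1.31 over 25 probes. Both were below 0 within 1000 bp of the array's start, at -0.26 and -0.15, and Ccr7 was also below 0 with the median of probes (-0.28) and without probes dim in input (-0.14). Ccr9 and Ccr1 both had means of 0.12. Ccr1 was below 0 with normexp (-0.14), in the series table (-0.09), with the median of probes (-0.008) and near the RefSeq start (-0.06). Il8rb (now Cxcr2), a neutrophil receptor, was lowest with -0.64 ± 1.59 over 34 probes, followed by Ccr8 with -0.56 and Cxcr6 with -0.32. Cxcl12 and Cxcr4, a ligand and its receptor, were thus the third and the fourth highest of the 112 genes, at the 94.4th and 91.1st percentile of all genes.

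**Figure D2:**
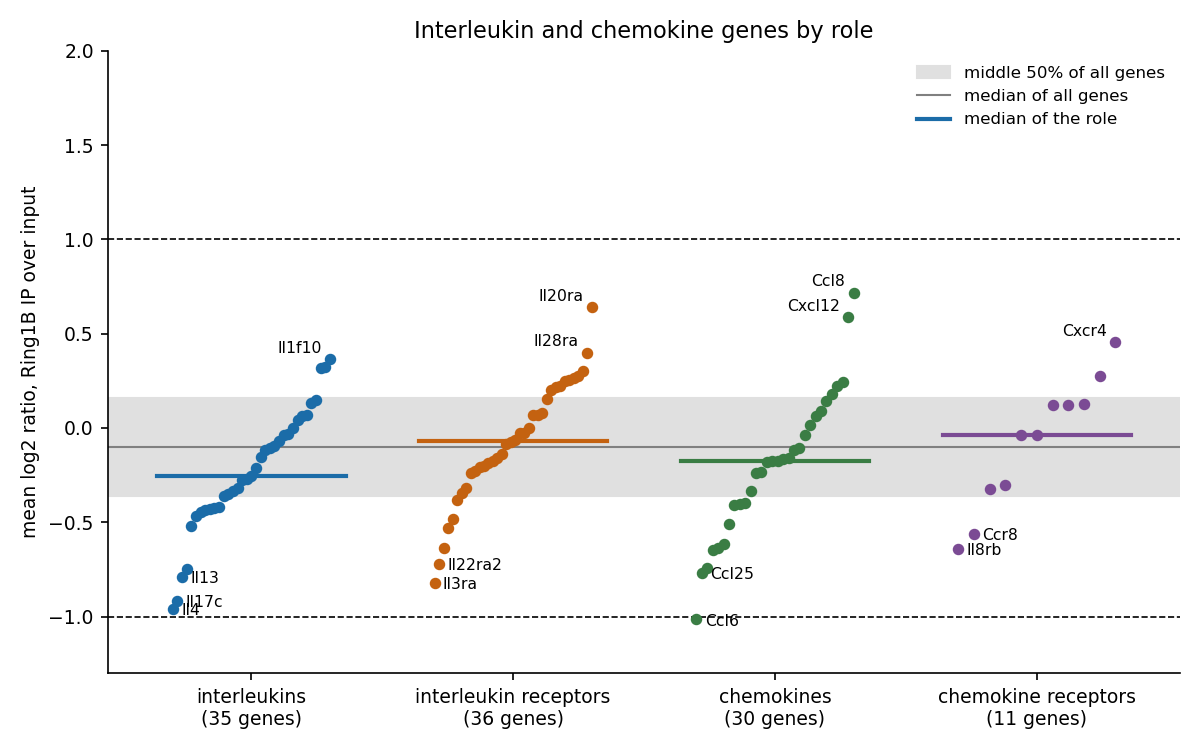
Mean log2 ratio (Ring1B precipitate over input) of each of the 112 genes, ordered within its role, with the median of the role as a bar. The grey band holds the middle 50% of all 16908 genes and the dashed lines mark 1 and -1. No gene reaches 1, and Ccl6 alone passes -1.

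The plot by role shows that the roles overlapped along most of their range. In each role the highest gene lay between 0.36 and 0.72 and the lowest between -1.01 and -0.64.

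A gene mean over several kilobases can hide a short stretch of signal, so runs of probes were examined with a running mean over 500 bp on either side. No gene of the family touched a run at or above 1 that was at least 2000 bp long, against 3.08% of all genes, and 2 genes, Ccl6 and Il22ra2, touched one at or below -1, against 1.1% of all genes. With 1000 bp as the minimum, 8 genes (7.14%) touched a run above, against 8.36% of all genes, and 12 genes (10.7%) a run below, against 10.5% of all genes. The genes with a run above were Ccl8, Ccr9, Cxcl12, Cxcr4, Il15ra, Il20ra, Il13ra1 and Cxcl14. Il15ra and Cxcl14 are named because of these runs, after their values were seen. Starts were placed by exact match of array probes to the RefSeq promoter, which was found for 71 of the genes.

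The run at Cxcl12 was 1225 bp long with a mean of 1.86 over 8 probes and lay from -104 to 1120 bp of the start, at 5.6 CpG per 100 bases. Its probes centred 296, 404, 550 and 724 bp after the start had ratios of 3.39, 2.29, 1.87 and 2.15, while the probe inside the printed promoter, at -82 bp, had 0.21. The probes at -749 and -463 bp from the start, neither with a CpG, had 2.57 each. The run at Cxcr4 was 1162 bp long with a mean of 2.48 over 5 probes and lay within the gene, from 482 to 1643 bp after the start. The 2 probes inside the promoter of Cxcr4 had -0.78 and 0.68, and further upstream those at -268 and -434 bp had 2.69 and 1.93. High probes thus lay on both sides of a low stretch at the start. The upstream side had only these 2, since the next probes, at -681 and -887 bp, had -1.79 and -2.36. At Il20ra the run covered 13 to 1078 bp after the start with a mean of 1.82 over 7 probes, and its highest probe, 479 bp after the start, had 4.21, while the probe at -498 bp had -3.75.

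Cxcl14, a chemokine made by epithelia, had a run of 1012 bp with a mean of 1.24 over 5 probes from -717 to 294 bp of the start. Its highest probe, at -182 bp, held no CpG and had 3.44. At Il13ra1 the run lay from 346 to 1376 bp after the start with a mean of 1.45 over 6 probes and 0.59 CpG per 100 bases. The 8 CpG of the Il13ra1 probe just before the start gave no high ratio (0.07). Il15ra, the alpha chain of the IL-15 receptor, had a run of 1157 bp with a mean of 1.45 over 7 probes, from -318 to 838 bp of the start. The run of Ccl8 was the longest of the family above 1, 1626 bp, but lay 632 to 2257 bp after the start, had a mean of 1.17, held 0.18 CpG per 100 bases and had 20% of its 10 probes at the floor. The run counted for Ccr9 had 9 probes, of which 1 was annotated to Ccr9 and the others to its neighbour Xtrp3s1, so it says little about Ccr9.

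On the low side, the run at Ccl6 was 3255 bp long with a mean of -1.56 over 13 probes and lay upstream, from -5309 to -2055 bp of the start. The single probe inside the Ccl6 promoter had 1.19. The run at Il22ra2 was 2708 bp long with a mean of -1.71 over 9 probes, at 0.19 CpG per 100 bases. The run at Il13 reached from -957 to 777 bp of the start with a mean of -1.80 over 11 probes, and that of Il4 from 795 to 1971 bp after the start with a mean of -1.79 over 7 probes. No probe of the runs at Il13 and Il4 was at the floor.

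Means were also taken over probes within 1000 bp of the start as the array annotation gives it, which can differ from the RefSeq start. On this basis 107 genes had at least 3 probes. Of these, 3 had a mean of at least 1, namely Cxcl12 with 1.57 ± 1.12 (SD over 12 probes), Il13ra1 with 1.31 ± 1.19 over 9 probes and Cxcl14 with 1.22 ± 1.5 over 8 probes, against 7.94% of all genes treated alike. A mean of -1 or less was found for 8, led by Il13 with -1.51 ± 1.92 over 12 probes and Il22ra2 with -1.49 ± 1.59 over 5 probes, against 6.43% of all genes. The median of the 107 genes was -0.15 near the start, against 0.03 for all genes. Interleukins had the lowest median near the start, -0.33 over 34 genes with 0 at or above 1, while chemokines had 0.04, interleukin receptors 0.01 and chemokine receptors -0.06. With distances from the RefSeq start, for the 71 genes that had one, 4 genes reached 1 (Cxcl12 1.57, Cxcl14 1.22, Il13ra1 1.2 and Il15ra 1.08) against 7.61% of all genes, and 2 reached -1 (Il13 -1.51 and Cxcr6 -1.2) against 5.91%. Il12a, one of the 8 low genes by the array's start, was at -0.66 by the RefSeq start. Ccl5, Ccl7, Ccl9, Il22ra2 and Il27, also among these 8, had no RefSeq start placed and were not counted on that basis. Over the 98 probes that matched a RefSeq promoter exactly, in 71 genes, the median per gene was 0.06, against 0.02 over 10506 genes matched alike. Of these 71 genes 8 (11.3%) reached 1, against 18.4% of all, and 18 (25.4%) reached -1, against 16.2%, with 45 of the 71 values resting on a single probe.

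**Figure D3:**
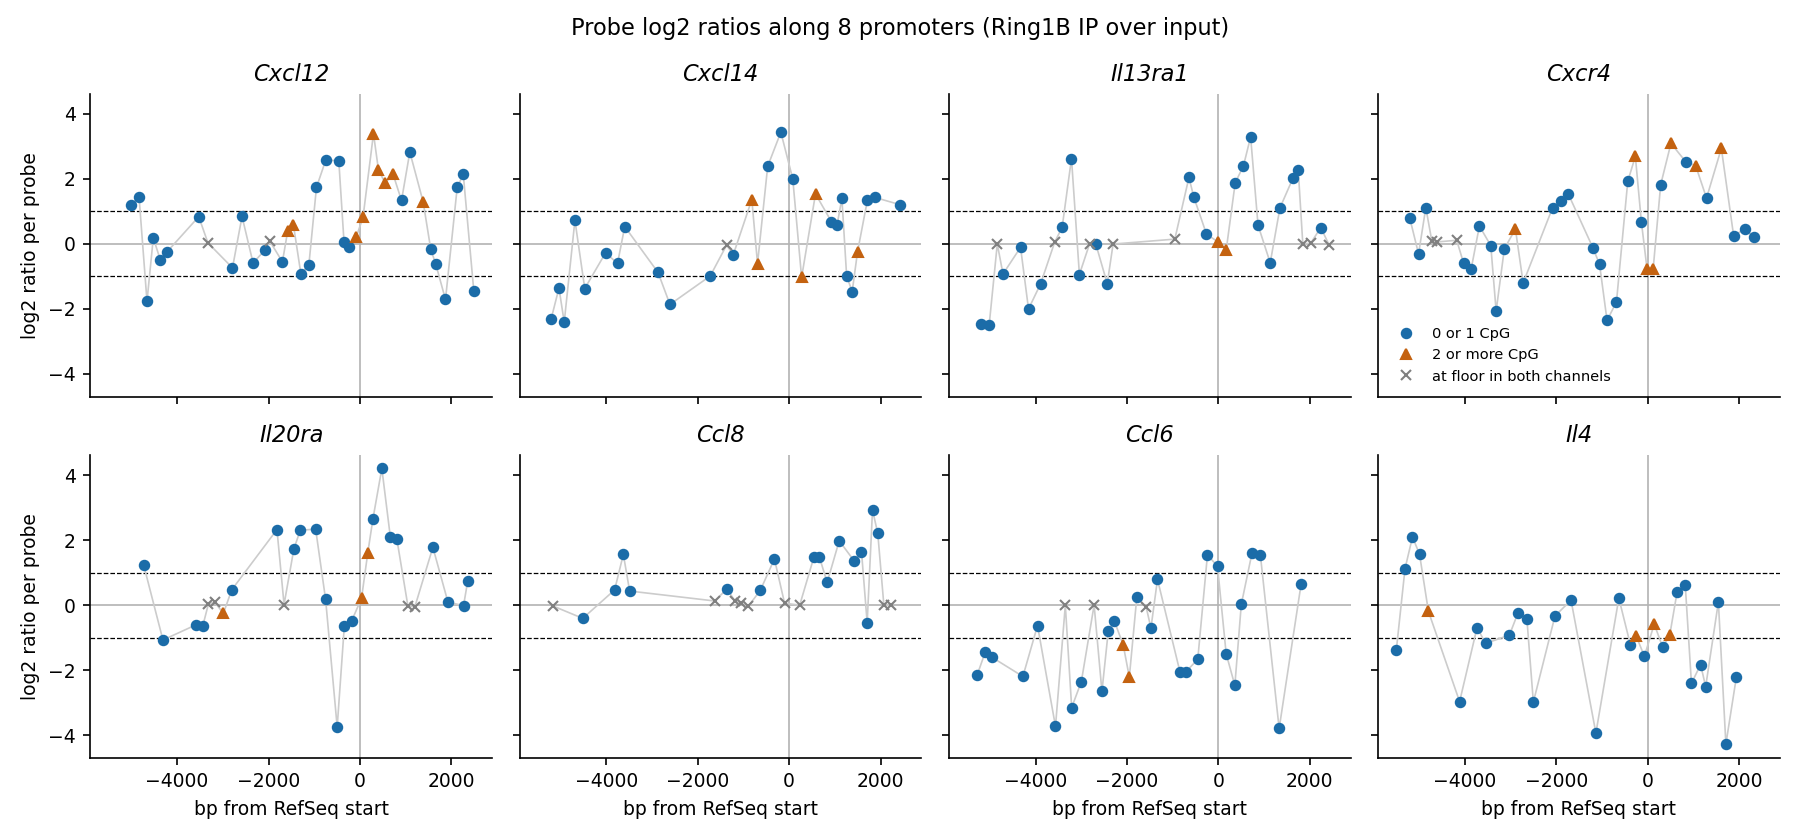
Log2 ratio of each probe (Ring1B precipitate over input) against its distance in bp from the RefSeq start for 8 genes, with the dashed lines at 1 and -1. Circles are probes with 0 or 1 CpG, triangles probes with 2 or more CpG, and crosses probes at the floor in both channels. Cxcl12, Cxcr4 and Il20ra show adjoining high probes after the start, and Ccl6 shows low probes upstream.

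The plot of probe profiles shows how the ratio varied along a promoter. At Il20ra it went from -3.75 at -498 bp over 5 probes in between to 4.21 at 479 bp, and each value is a single spot on a single array.

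The family was poor in CpG. The median gene had 0.82 CpG per 100 probe bases, against 1.25 for all genes, and 63.9% of its 3366 probes held no CpG, against 57.2% of the probes of other genes. When all genes were split into 5 equal classes by this measure, 41 of the 112 genes (36.6%) fell in each of the lowest and the second class, 17 in the third, 10 in the fourth and 3 in the highest. In the RefSeq promoters, 26 of 86 genes (30.2%) had 10 or more CpG (C followed by G, which reads the same on both strands) in 300 bases, against 45.8% of all 27025 promoters, and all 86 had at least 1, against 5.40% of all promoters with 0. Among other genes the share at or above 1 was higher in each successive class, from 0.0898% and 0.269% in the lowest classes through 0.594% and 2.14% to 6.90% in the highest. Among the 112 genes it was 0 in every class, of 41, 41, 17, 10 and 3 genes.

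Within classes, the medians of the family were -0.21, -0.12, -0.16, -0.04 and 0.07 from the lowest class to the highest, and those of the other genes -0.15, -0.17, -0.12, -0.07 and 0.04. The median over the 112 genes of each gene's value minus the median of other genes in its class was -0.0045, and it lay between -0.085 and 0.063 under the alternatives. Across the 112 genes, CpG per 100 bases and the mean ratio had a Pearson r of 0.07 and a Spearman rho of 0.08, against 0.23 and 0.19 across 16796 other genes. These are descriptions across genes, which are not independent replicates and share arrays and base composition.

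The 13 genes in the highest CpG classes were spread on both sides of 0, with 7 above it and a median of 0.00. Il17d had the most CpG, 2.32 per 100 bases, and a mean of 0.33. Il27ra, a chain of the IL-27 receptor, had 2.14 and -0.38 ± 1.79 (SD over 12 probes), but was above 0 with normexp (0.05), in the series table (0.015), with the median of probes (0.32) and near the start (0.40). Il17ra, the shared IL-17 receptor chain, had 2.00 and 0.07 ± 1.09 over 31 probes. Cxcl12 had 1.84 and 0.59. Il17rd, also known as Sef, an inhibitor of FGF signalling, had 1.70 and -0.34 ± 1.64 over 44 probes. Some probes of Il17rd lay 61853 to 63475 bp after the RefSeq start, and its mean within 1000 bp of the array's start was -0.56. Il4ra, a chain of the IL-4 and IL-13 receptors, had 1.70 and -0.07 ± 1.61 over 31 probes. Of the 26 genes with 10 or more CpG in the RefSeq promoter, the median mean ratio was 0.04, and near the start it was 0.13. The 16 genes with 5 to 9 CpG had -0.19 and -0.16, and the 44 with fewer had -0.14 and -0.19. The probes did not cover the RefSeq promoter in every gene, so these ratios need not be those of the promoter counted. Ccl25, Il3ra and Il1rapl2 had 52, 35 and 16 CpG in the promoter, and no probe matched it exactly. All their probes together held 12, 13 and 1 CpG.

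**Figure D4:**
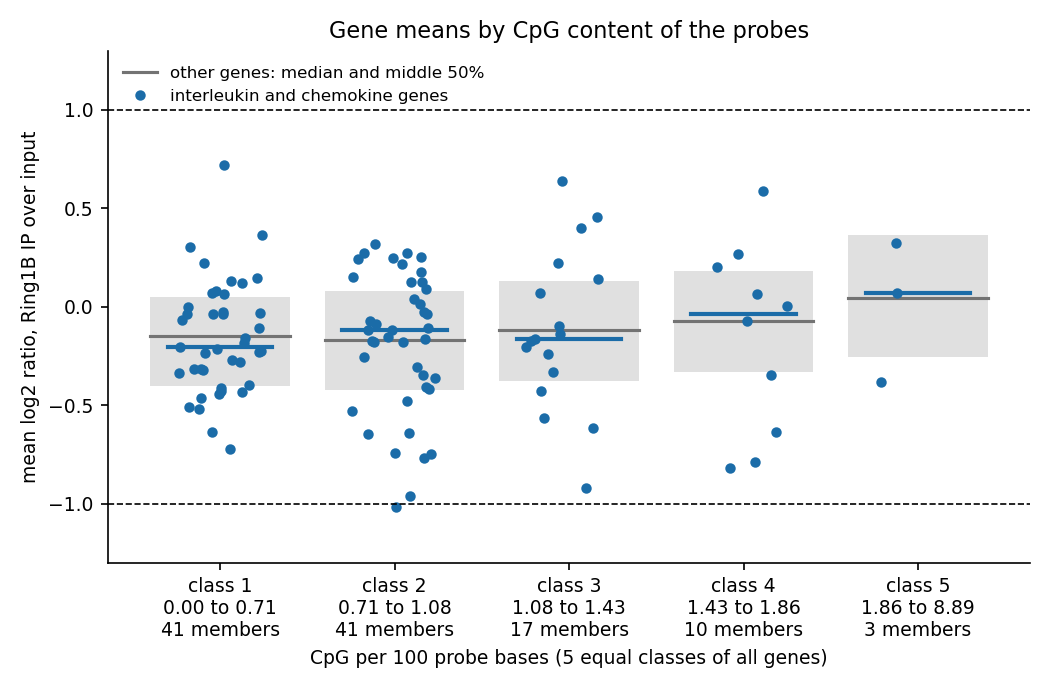
Mean log2 ratio per gene (Ring1B precipitate over input) in 5 equal classes of all genes by CpG per 100 probe bases. Points are the 112 interleukin and chemokine genes with their median in blue, and grey boxes give the median and middle 50% of the other genes. The family thins out from 41 genes in class 1 to 3 in class 5 and no point reaches 1.

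The comparison was also made probe by probe. In probes with no CpG the median ratio was -0.01 for the family and -0.01 for other genes. In probes with 4 or more CpG it was 0.21 over 35 probes of the family and 0.25 over 15311 probes of other genes, and 1.82 over 53 probes of Hox genes. Hox probes without a CpG also stood high, with a median of 1.16. Floor values filled 18.2% of the family's probes without a CpG and 0 of its 35 probes with 4 or more, and their part in this difference was not tested. Leaving floor probes out, the family's medians were -0.20 without a CpG and 0.21 with 4 or more, against -0.17 and 0.26 for other genes.

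Many of these genes lie side by side in the genome, and 9 groups of at least 3 neighbours less than 500 kb apart were described together. None held a gene at or above 1. The group of Il4, Il13 and Il5 on chromosome 11, the type 2 cytokine locus, had the lowest median, -0.79, with Il4 at -0.96 and Il5 at -0.10. Il5 shares 11 of its 25 probes with Rad50, a DNA repair gene within this locus. The 6 CC chemokine genes from Ccl2 to Ccl1 on the same chromosome had a median of -0.29, with 5 of 6 below 0 and Ccl8 at 0.72. The 5 from Ccl5 to Ccl4 had a median of -0.34, from -1.01 for Ccl6 to 0.22 for Ccl3. The 6 CXC genes from Cxcl5 to Cxcl2 on chromosome 5 had a median of -0.05, and Cxcl9, Cxcl10 and Cxcl11, which share the receptor Cxcr3, -0.17, 0.18 being that of Cxcl11 and -0.65 that of Cxcl10. The 5 receptor genes from Il1r2 to Il18rap on chromosome 1 all lay below 0, between -0.48 and -0.03.

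**Figure D5:**
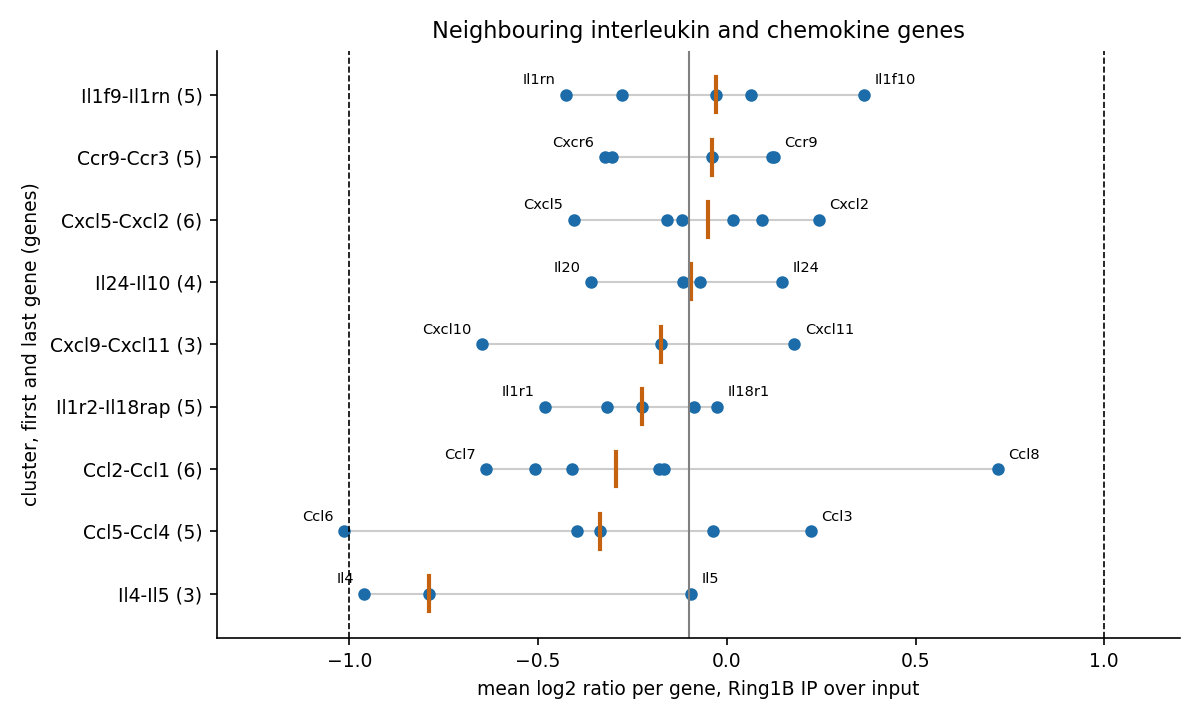
Mean log2 ratio per gene (Ring1B precipitate over input) in 9 groups of neighbouring genes, with the median of each group as an orange bar and the number of genes in brackets. The grey line is the median of all genes and the dashed lines mark 1 and -1. The group of Il4, Il13 and Il5 has the lowest median, -0.79, and Ccl8 stands apart from its neighbours at 0.72.

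The plot of neighbours shows that genes of one group were often as far apart as genes of different groups. Ccl8 and Ccl7, which belong to the same group, stood at 0.72 and -0.64.

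Genes that act with these ligands and receptors but fall outside the naming rule were described from lists. Of 30 listed genes of the JAK, STAT, SOCS, IRAK and NF-kappa B proteins, 28 were measured, with a median of 0.02, and 0 of them reached 1 or -1. Irak3, an inhibitor of IL-1 receptor signalling, came closest with 0.95 ± 1.61 (SD over 32 probes), and a run of 4107 bp with a mean of 1.72. Rel, a transcription factor of NF-kappa B signalling, had a mean of 0.34 with a run of 2545 bp at a mean of 1.6. Stat3, which carries signals of the IL-6 family and of leukemia inhibitory factor, had 0.50 ± 1.04 over 29 probes. Of 45 listed names of other cytokines and receptors, 33 were measured, with a median of -0.08 and again 0 at or above 1. Osmr, the receptor for oncostatin M, was highest with 0.59 ± 1.19 over 29 probes and a run of 2057 bp at a mean of 1.51, and Cx3cr1, the receptor for fractalkine, was lowest with -0.85 ± 1.40 over 26 probes. The olfactory receptors, another large family of genes used in few tissues, numbered 864, of which 1 reached 1, and their median was -0.11, with a median of 52% of their probes at the floor.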

How the data were processed

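The array files and series table of 2 slides were used. Per the file headers, the deposited signals are intensity values from Agilent Feature Extraction 9.1.3.1 after background subtraction and linear dye scaling, with dim spots at a floor value. Per the file headers, the deposited LogRatio column is on a log10 scale, Cy5 over Cy3. The deposited series table holds the log2 ratio of mean signals, as checked against the array files. Log2 ratios of the deposited processed signals were centred on each slide's median probe (0.23 and 0.16). Control spots and 141 and 17 outlier probes were left out.

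A run needed 3 probes whose running mean was 1 or more in size, with gaps under 1000 bp. Start distances came from the array annotation of slide 1 and, for slide 2, from the boundary between promoter and inside probes. Of the 113 names, 105 matched a present symbol and 8 an older one. In 11 counted genes some probes also belong to a neighbour.

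Genes named were the 5 highest and 3 lowest of each role, those past 1 in size or with a run of at least 2000 bp, the 6 richest in CpG and 11 picked by name. Others were named after their values were seen. The members and lists were chosen with earlier results of these data known. Python 3.11.15 with pandas 2.3.3 and numpy 2.4.6, and R 4.3.3 with limma 3.58.1 for the normexp (offset 50) and loess alternatives, were used, and the procedure was tested on simulated data. Distances from the RefSeq start were added after the data were seen. The alternatives also changed centring, source table, dim probes, gene summary, probe minimum, start window, threshold, run settings and CpG classes. Some items are not reported here.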

Additional observations from a re-analysis of the deposited data

How the results depend on the processing

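No paired analysis was possible because each promoter was measured on 1 array. The count of 0 genes at or above 1 held under normexp, no centring, the centred series table, the median of probes, loess and other probe minimums. It was 1 (Ccl8) without floor probes and 1 without probes dim in input, 3 within 1000 bp of the array's start, 4 within 1000 bp of the RefSeq start (chosen after seeing the data) and 3 at 0.58. The count of 1 gene at or below -1 was 0 with normexp, 0 without centring and 0 in the series table, where Ccl6 stood at -0.75, -0.85 and -0.75. It was 2 with loess (all genes 1.69%), 8 of 107 near the array's start, without Ccl6, and 2 of 71 near the RefSeq start. It was 9 of 112 without probes dim in input, where 7.51% of all genes were as low, and 14 at -0.58. The median of -0.16 was -0.011 under normexp (all genes 0.01), 0.067 uncentred (all genes 0.10) and -0.010 in the series table (all genes 0.02). It was -0.36 once dim input probes were dropped (all genes -0.28), -0.0074 by probe medians (all genes -0.0055) and -0.25 by loess (all genes -0.14). It was below that of all genes in each. The family's difference from its CpG classes was -0.085 near the start. Genes with a run above were 2 with a 1000 bp window (Ccr9, Cxcr4), 8 at 1000 bp, 2 with normexp and 2 in the series table (Cxcl12 and Cxcr4 in both). Genes with a run below were 12 at 1000 bp, 1 at 3000 bp, 1 with normexp and 1 in the series table. Of 368 values of named genes under alternatives that could alter them, 47 changed sign, in 19 genes whose main means were at most 0.77 in size. The causes were not tested. Depth cannot be given for arrays, and floor probes (18.2% and 15.5% of the slides) limit what dim promoters can show.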

Other observations

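The share of probes at the floor varied widely within the family, with a median of 16.7% in interleukins and 8.82% in chemokine receptors. It was 65.7% at Il13ra2, 52.6% at Il18rap, 50.0% at Il23r and 45.5% at Ccr1. No probe was at the floor at the low genes Il4, Il13, Il17c, Il3ra and Il12rb1 (-0.63). The same held for Il27ra (-0.38), Ccl1 (-0.17) and Il22ra1 (-0.16), and for Il10rb (0.27), Il17b (0.04) and Il2rb (-0.03). The lowest gene, Ccl6, had 9.68%. Across the 112 genes the share of floor probes and the mean ratio had a Pearson r of 0.18 and a Spearman rho of 0.15, a description across genes. Il13ra2 also had the smallest SD over probes, 0.45, with a mean of 0.08 over 35 probes.

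Il3ra had a median input signal of 4532 and a mean ratio of -0.82, Il17c had 1722 and -0.92, and Il13 had 1248 and -0.79. The RefSeq promoter of Il3ra held 35 CpG, but no probe of Il3ra matched it exactly, and its 17 probes held 13 CpG in all. Among other genes with bright input, Il17e had an input signal of 1385 and a mean ratio of -0.43, and Ccl22 had 1293 and -0.62. Il12rb1 had 1113 and -0.63, and Il4 had 1008 and -0.96. Others were not low, with 1143 and 0.14 for Cxcl16, 1034 and 0.12 for Ccr9, and 953 and 0.22 for Il11ra1. The typical gene of the family had a median input signal of 224 and all genes one of 302. Whether bright input has a part in these low ratios was not tested.

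Upstream of the start the family was lowest between -4000 and -3000 bp, where its mean was -0.43 over 305 probes of 89 genes, against -0.16 over 37417 probes of other genes. Between 1000 and 2000 bp after the start the means were -0.06 and -0.06. These bins pool probes of different genes and have no replicate.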
